A study of Mus musculus with 6 samples.

Results

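Liver sinusoidal endothelial cells, the fenestrated cells that line the smallest blood vessels of the liver, were profiled by RNA sequencing for genes of the red blood cell. The genes described are the alpha globin genes Hba-a1 and Hba-a2, the beta globin genes Hbb-bs and Hbb-bt, the heme enzyme gene Alas2 and the membrane transporter gene Slc4a1, 6 of 48897 genes in the deposited table. They were selected because of their measured levels in these same libraries, so their difference between the groups is given as a description and no test of it is drawn on. One group had undergone partial hepatectomy (PHx), the surgical removal of part of the liver. The other group had a sham operation (Sham). All mice were C57BL/6, 7 to 8 weeks old by the labels, and the cells were taken on day 14 after the operation, purified with magnetic beads against CD146, the protein encoded by Mcam. No genetic change or agent is named for either group. Each group held 3 libraries, numbered 1, 3 and 4, and the labels do not say whether a library came from 1 mouse or from pooled mice, so a p-value speaks for the scatter among these libraries alone, and that scatter may be technical.

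Hemoglobin is a tetramer that pairs alpha chains with beta chains, each chain carrying a heme group whose iron binds oxygen. Alas2 encodes the erythroid form of 5-aminolevulinate synthase, the enzyme that starts heme synthesis in red cell precursors, and Alas1 encodes the form used by other cells. Slc4a1 encodes band 3, the anion exchanger that carries bicarbonate and chloride across the red cell membrane. Circulating mouse red cells have lost their nucleus, and immature ones, the reticulocytes, still hold globin mRNA. Hbb-bs and Hbb-bt are the adult beta globin genes of the haplotype that C57BL/6 mice carry.

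Summed counts per library ranged from 38765116 to 51888481. Markers of the labelled cell type were present: all 12 sinusoidal endothelial markers were detected, with a summed level of 17992 to 27324 CPM (counts scaled to a common library size) in PHx libraries and 31855 to 34429 CPM in Sham libraries. Detection means a count in some library and does not single out a cell type, since all listed neutrophil, platelet, leukocyte and hepatocyte markers were detected too. The highest sum of any of those lists in a library was 5355 CPM. Mcam itself stood at 365, 334 and 408 CPM in PHx libraries 1, 3 and 4 and at 372, 374 and 281 CPM in Sham libraries 1, 3 and 4. The endothelial marker sums were lower in every PHx library than in any Sham library. In bulk RNA, fewer cells of a type and less RNA per cell cannot be told apart, and this holds for red cells as well as for endothelial cells.

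The alpha genes and the beta genes are near-identical pairs, which limits how far a count can be given to 1 member of a pair. The annotated coding sequences of Hba-a1 and Hba-a2, from GENCODE release M21 on GRCm38, are 429 bases each and differ at 1 base, C381T. Those of Hbb-bs and Hbb-bt are 444 bases each and also differ at 1 base, C417T. Positions count from 1 at the first base of the start codon, and the base of Hba-a1 or Hbb-bs comes first. Both changes fall on the third base of a codon, 127 in alpha and 139 in beta, and leave the amino acid unchanged. The 41 coding bases around each difference are shown because they mark what tells the members of a pair apart, with the differing base in capitals, from chr11:32284323-32284363 and chr11:32297140-32297180 on the plus strand and chr7:103826672-103826712 and chr7:103812663-103812703 on the minus strand.
Hba-a1: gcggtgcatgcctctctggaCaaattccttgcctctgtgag
Hba-a2: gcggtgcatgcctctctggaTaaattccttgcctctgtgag
Hbb-bs: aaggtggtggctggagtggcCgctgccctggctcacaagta
Hbb-bt: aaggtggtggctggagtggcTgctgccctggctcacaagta

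Of all 150-base windows, the length of a read here, along the spliced transcript, 48.4% of those of Hba-a1 were also found letter for letter in Hba-a2, and 65.7% of those of Hba-a2 in Hba-a1. For the beta pair, 58.7% of the windows of Hbb-bs were found in Hbb-bt and 50.7% of those of Hbb-bt in Hbb-bs. The program that counted the reads and its rule for reads that match both members are not given in the sources used here. Values of Hba-a1 against Hba-a2, and of Hbb-bs against Hbb-bt, are therefore uncertain. The alpha sum and the beta sum do not depend on how reads were split within a pair. They would change if reads that match both members were dropped or counted for each.

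The sequences before the start sites show what the members share outside the coding part. The 150 bases before the annotated start are printed from the RefSeq promoter table (GRCm38.p6), in which 5 of the 6 members matched, all but Slc4a1. Capitals mark the letters TATAA (the TATA-type box), CCAAT (the CCAAT box), CACCC (the CACCC box) and GATAA (the site of GATA factors), searched on both strands, so that a motif on the opposite strand reads as its complement. The stretches are chr11:32283522-32283671 and chr11:32296342-32296491 on the plus strand, chr7:103827929-103828078 and chr7:103813924-103814073 on the minus strand and chrX:150547267-150547416 on the plus strand.
Hba-a1: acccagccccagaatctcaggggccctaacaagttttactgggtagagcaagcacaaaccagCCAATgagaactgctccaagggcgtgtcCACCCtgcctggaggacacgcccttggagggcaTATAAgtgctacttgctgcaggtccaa
Hba-a2: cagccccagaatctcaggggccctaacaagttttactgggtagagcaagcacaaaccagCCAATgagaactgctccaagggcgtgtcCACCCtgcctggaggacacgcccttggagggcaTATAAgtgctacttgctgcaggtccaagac
Hbb-bs: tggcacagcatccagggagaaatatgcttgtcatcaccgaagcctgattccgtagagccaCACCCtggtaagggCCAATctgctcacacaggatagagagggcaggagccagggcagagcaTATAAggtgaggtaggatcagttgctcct
Hbb-bt: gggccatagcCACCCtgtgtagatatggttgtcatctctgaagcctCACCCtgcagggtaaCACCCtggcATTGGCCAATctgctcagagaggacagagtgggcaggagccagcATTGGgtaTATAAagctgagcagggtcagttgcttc
Alas2: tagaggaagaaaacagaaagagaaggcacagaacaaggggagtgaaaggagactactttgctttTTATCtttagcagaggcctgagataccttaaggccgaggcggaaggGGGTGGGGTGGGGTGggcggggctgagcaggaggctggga

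Within 250 bases before the start, all 4 adult globin genes held all 4 motifs, which 0.968% of 32851 promoters of that length did. On the same strand, TATAA lay between 27 and 30 bases before the start in the globin genes, Hbb-bt had another on the opposite strand 229 bases before its start, and the same letters occurred in 22.8% of promoters. CCAAT lay 88 and 91 bases before the start of Hba-a1 and Hba-a2 and 76 and 75 bases before that of Hbb-bs and Hbb-bt, against 33.8% of promoters with those letters. In Hbb-bt a CCAAT on the opposite strand directly adjoins the one on the same strand, and another lies 36 bases before the start. CACCC was found in 52.0% of promoters and GATAA in 22.6%, and the GATAA of the globin genes lay between 182 and 209 bases before the start, outside the stretch shown. Alas2 held no CCAAT in this window, had TATAA on both strands, overlapping, 207 and 208 bases before its start, carried GATAA on the opposite strand 86 bases before its start and had CACCC on the opposite strand 40, 35 and 30 bases before it. The 2 alpha promoters shared an unbroken run of 247 of their 250 bases. A motif match is a description of letters and does not show that a factor was bound.

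Among alpha globin genes, Hba-a1 was the more abundant. Hba-a1 (chr11:32283672-32284486, plus strand) had 689, 389 and 884 counts, or 13.3, 7.97 and 18.4 CPM, in PHx libraries 1, 3 and 4. In Sham libraries 1, 3 and 4 it had 171, 86 and 224 counts, or 4.53, 1.66 and 4.55 CPM. All 3 PHx libraries lay above all 3 Sham libraries, with PHx library 4 the highest and Sham library 3 the lowest. The mean was 13.2 ± 5.22 CPM in PHx libraries and 3.58 ± 1.66 CPM in Sham libraries (SD, n = 3 each), a log2 fold change of 1.89 with a standard error (SE) of 0.46, or 3.70-fold.

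Hba-a2 (chr11:32296492-32297310, plus strand), the downstream alpha gene, had 76, 54 and 91 counts in PHx libraries 1, 3 and 4, against 12, 30 and 48 counts in Sham libraries 1, 3 and 4. The levels were 1.47, 1.11 and 1.90 CPM in PHx libraries and 0.318, 0.580 and 0.975 CPM in Sham libraries. The groups did not overlap, although PHx library 3 and Sham library 4 lay close together. The log2 fold change was 1.24 ± 0.51 (SE).

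Of the beta globin genes, Hbb-bs carried nearly all counts. Hbb-bs (chr7:103826523-103827928, minus strand) had 630, 415 and 867 counts, or 12.2, 8.50 and 18.1 CPM, in PHx libraries 1, 3 and 4. In Sham libraries 1, 3 and 4 it had 128, 107 and 251 counts, or 3.39, 2.07 and 5.10 CPM. The groups did not overlap, and the order of the 6 libraries was the one seen for Hba-a1: PHx 4, PHx 1, PHx 3, Sham 4, Sham 1, Sham 3. The mean was 12.9 ± 4.82 CPM in PHx libraries and 3.52 ± 1.52 CPM in Sham libraries (SD, n = 3 each), a log2 fold change of 1.87 ± 0.40 (SE).

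Hbb-bt (chr7:103812524-103813923, minus strand), the minor adult beta gene here, had 58, 20 and 67 counts in PHx libraries 1, 3 and 4, against 19, 7 and 23 counts in Sham libraries 1, 3 and 4. The levels were 1.12, 0.410 and 1.40 CPM in PHx libraries and 0.504, 0.135 and 0.467 CPM in Sham libraries. Here the groups overlapped, since PHx library 3 lay below Sham libraries 1 and 4. The log2 fold change was 1.41 ± 0.69 (SE), the least precise of the 4 globin genes.

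**Figure D1:**
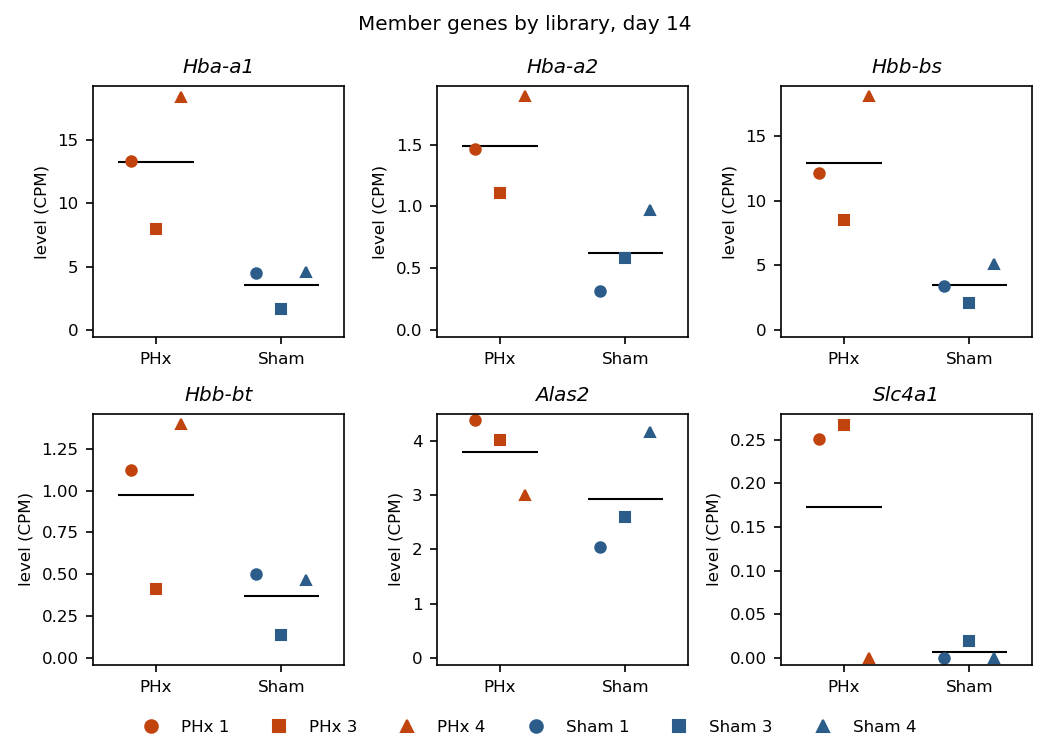
Level of each of the 6 genes in CPM (vertical axes, each with its own scale) in the 3 PHx libraries and the 3 Sham libraries, with a line at each group's mean. Hba-a1, Hba-a2 and Hbb-bs show no overlap between the groups, Hbb-bt and Alas2 overlap, and Slc4a1 is at 0 in PHx library 4.

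Summed over the 4 globin genes, PHx libraries 1, 3 and 4 held 1453, 878 and 1909 counts, and Sham libraries 1, 3 and 4 held 330, 230 and 546. That was 28.1, 18.0 and 39.8 CPM in PHx libraries and 8.75, 4.45 and 11.1 CPM in Sham libraries. The groups did not overlap, and the mean of the PHx libraries was 3.53 times that of the Sham libraries. The alpha sum averaged 14.7 ± 5.62 CPM in PHx libraries and 4.21 ± 1.73 CPM in Sham libraries, and the beta sum averaged 13.9 ± 5.30 CPM in PHx libraries and 3.89 ± 1.68 CPM in Sham libraries (SD, n = 3 each). In PHx libraries the globin counts made up 0.00177% to 0.00394% of all counts, and in Sham libraries 0.000443% to 0.00110%, so the signal was a trace in every library.

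Alas2 ranked the libraries in another order than the globin sum did. Alas2 (chrX:150547417-150570622, plus strand) had 227, 196 and 144 counts, or 4.38, 4.01 and 3.0 CPM, in PHx libraries 1, 3 and 4. In Sham libraries 1, 3 and 4 it had 77, 134 and 205 counts, or 2.04, 2.59 and 4.16 CPM. The groups overlapped, with Sham library 4 above PHx libraries 3 and 4. PHx library 4, the highest of all for globin, was the lowest PHx library for Alas2. The mean was 3.80 ± 0.717 CPM in PHx libraries and 2.93 ± 1.10 CPM in Sham libraries (SD, n = 3 each), and the log2 fold change was 0.37 ± 0.34 (SE).

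Alas2 lies inside the span that the table gives to Apex2, a DNA repair gene on the opposite strand, and in GENCODE 311 of its 2403 exon bases are also exon of Apex2. Whether the counting used strand was not given in the sources used here, so reads of the shared stretch could have gone to either gene. Apex2, named because of this overlap and after its values were seen, had 687, 637 and 763 counts in PHx libraries 1, 3 and 4 and 501, 448 and 634 counts in Sham libraries 1, 3 and 4. There were 0.330, 0.308 and 0.189 Alas2 counts per Apex2 count in PHx libraries and 0.154, 0.299 and 0.323 in Sham libraries, so the 2 genes did not stand in a fixed ratio. What share of the Alas2 counts came from Apex2 transcripts was not tested.

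Slc4a1 (chr11:102348820-102365281, minus strand) had 13, 13 and 0 counts in PHx libraries 1, 3 and 4 and 0, 1 and 0 counts in Sham libraries 1, 3 and 4. It was too low for the count filter and so has no fitted fold change. The groups overlapped at 0, because PHx library 4, with the most globin, had no Slc4a1 count, which allows up to 3 counts or 0.0625 CPM by counting error alone. The ratio of summed counts, PHx over Sham, with each sum divided by the summed scaled library sizes of its group, was 24.3. Its exact 95% interval, 3.99 to 995, covers counting error only. The ratio was 15.7 without Sham library 4 and 35.8 without PHx library 4. Without Sham library 3, which held the 1 Sham count, there is no ratio.

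By level per transcript length, in the deposited RPKM (counts scaled by gene length and by summed counts), the order in PHx libraries was Hba-a1 at 24.0 ± 9.37, Hbb-bs at 20.4 ± 7.45, Hba-a2 at 2.68 ± 0.705, Alas2 at 1.95 ± 0.431 and Hbb-bt at 1.58 ± 0.824 RPKM (SD, n = 3). In Sham libraries Hba-a1 stood at 6.30 ± 2.89, Hbb-bs at 5.43 ± 2.35, Alas2 at 1.46 ± 0.557, Hba-a2 at 1.10 ± 0.585 and Hbb-bt at 0.575 ± 0.314 RPKM (SD, n = 3). In both groups the libraries of Hba-a1 and Hbb-bs overlapped, as did those of neighbours among the other 3 genes, and a gap without overlap lay between Hbb-bs and the next gene.

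Of the 5 members that passed the count filter, edgeR's quasi-likelihood test called none at a Benjamini-Hochberg adjusted p under 0.05, where it called 161 of 19033 genes higher (0.846%) and 3 lower (0.0158%). At an unadjusted p under 0.05 it gave 3 members, Hba-a1, Hba-a2 and Hbb-bs, as higher, beside 7.93% of all tested genes higher and 4.73% lower. DESeq2, another count model, called 2 members higher, Hba-a1 and Hbb-bs, beside 3.80% of its 19149 genes higher and 0.439% lower. All PHx libraries lay above all Sham libraries for 3 of the 6 members and for 10.6% of all tested genes. The median log2 fold change was 1.41 over the 5 tested members and 0.03 over all tested genes. Since the members were chosen on this contrast, nothing is read from these counts. The number of genes called in all varied with the library left out: 160 were higher without PHx library 4, 58 without PHx library 1, 82 without PHx library 3, 34 without Sham library 1, 6 without Sham library 3 and none without Sham library 4.

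The make-up of the globin counts was described apart from their level. Alpha counts made up 52.6%, 50.5% and 51.1% of the globin counts in PHx libraries 1, 3 and 4 and 55.5%, 50.4% and 49.8% in Sham libraries 1, 3 and 4. The Wilson 95% intervals, which cover counting error only, reached from 47.2% to 55.2% in PHx libraries and from 44.0% to 60.7% in Sham libraries, and all of them overlapped. The alpha to beta ratio of counts was 1.06 ± 0.0483 in PHx libraries and 1.09 ± 0.139 in Sham libraries (SD, n = 3 each), a difference smaller than the spread. On the deposited RPKM, which divides by length, the ratio was 1.21 in PHx libraries and 1.24 in Sham libraries.

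Within the alpha pair, Hba-a2 took 9.93%, 12.2% and 9.33% of the counts in PHx libraries 1, 3 and 4, against 6.56%, 25.9% and 17.6% in Sham libraries 1, 3 and 4. The Sham libraries spread on both sides of the PHx libraries, and the interval of Sham library 3, 18.8% to 34.5%, lay above those of all PHx libraries. Hbb-bt took 8.43%, 4.60% and 7.17% of the beta counts in PHx libraries 1, 3 and 4 and 12.9%, 6.14% and 8.39% in Sham libraries 1, 3 and 4. These beta shares overlapped between the groups, and libraries numbered 3 had the lowest share in each. Both shares carry the uncertainty of reads that match either member of a pair.

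Alas2 stood at 15.6, 22.3 and 7.54 counts per 100 globin counts in PHx libraries 1, 3 and 4 and at 23.3, 58.3 and 37.5 in Sham libraries 1, 3 and 4. All PHx libraries lay below all Sham libraries, PHx library 3 and Sham library 1 by a small margin. The globin sum that divides this ratio is the quantity the members were chosen on, so the gap is a description. Slc4a1 stood at 8.95, 14.8 and 0 counts per 1000 globin counts in PHx libraries 1, 3 and 4 and at 0, 4.35 and 0 in Sham libraries 1, 3 and 4. PHx library 4 thus stood with the Sham libraries, and the groups overlapped.

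**Figure D2:**
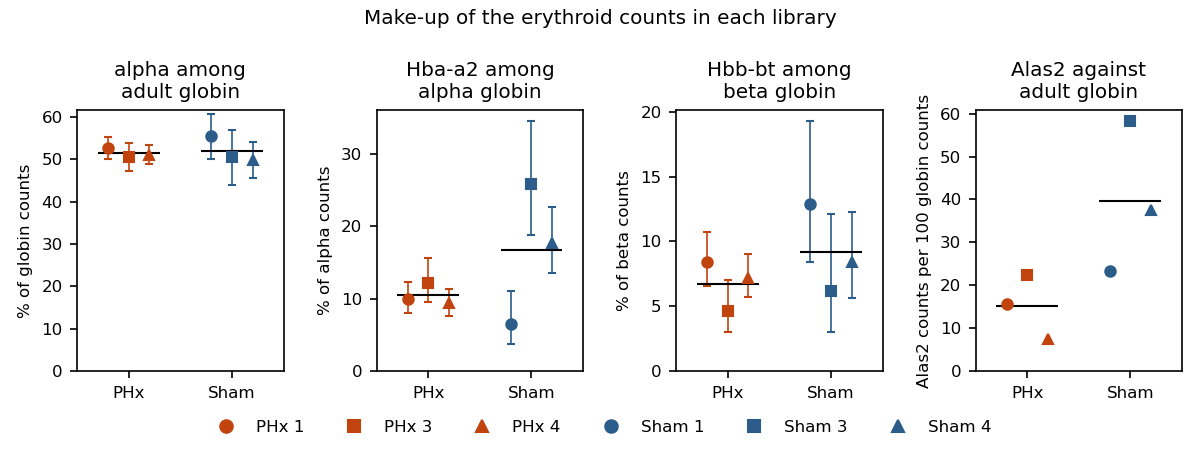
Share of alpha among globin counts, of Hba-a2 among alpha counts and of Hbb-bt among beta counts (vertical axes in percent, with Wilson 95% intervals), and Alas2 counts per 100 globin counts, in each PHx and Sham library, with a line at each group's mean. The alpha share stays between 49.8% and 55.5% in all 6 libraries, while Alas2 per globin lies lower in the PHx libraries.

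Other genes of the red cell were taken from 6 lists with 95 genes besides the members, of which 93 were found in the table and 72 passed the count filter. edgeR called none of them higher and none lower. At an unadjusted p under 0.05 there were 3 higher, or 4.17% beside 7.93% of all tested genes, and 8 lower, or 11.1% beside 4.73%. DESeq2 called 1 higher, Cygb, and none lower, beside 3.80% and 0.439% of all its genes. The median log2 fold change of the 72 genes was -0.02, close to the 0.03 of all tested genes.

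Among the other globins, the embryonic genes Hbb-y and Hbb-bh1, the beta-like gene Hbb-bh2 and the theta gene Hbq1a were at 0 in all 6 libraries, and embryonic Hba-x had 1 count, in PHx library 4. Hbq1b, the neighbour between the alpha genes, had 1, 0 and 0 counts in PHx libraries 1, 3 and 4 and 4, 0 and 0 in Sham libraries 1, 3 and 4. Cygb encodes cytoglobin, a globin of fibroblast-type cells that in liver marks stellate cells. It stood at 57.0, 46.1 and 84.9 CPM in PHx libraries 1, 3 and 4 and at 36.7, 32.0 and 28.3 CPM in Sham libraries 1, 3 and 4. The groups did not overlap, with a log2 fold change of 0.95 ± 0.23 (SE), an edgeR adjusted p of 0.145 and a DESeq2 adjusted p of 0.00679.

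No heme synthesis gene passed the test. All 14 were above the count filter, none was called by either tool or had an unadjusted edgeR p under 0.05, and their median log2 fold change was -0.01. Alas1, the form of the first enzyme used outside red cells, stood at 45.4, 36.4 and 60.3 CPM in PHx libraries 1, 3 and 4 and at 42.7, 33.6 and 36.9 CPM in Sham libraries 1, 3 and 4. Without correction for length, there were 13.2 ± 6.04 Alas1 counts per Alas2 count in PHx libraries and 14.2 ± 6.13 in Sham libraries (SD, n = 3 each). Fech, which inserts iron in the last step of heme synthesis, averaged 52.9 ± 3.36 CPM in PHx libraries and 54.5 ± 3.89 CPM in Sham libraries. Slc25a37, mitoferrin, which brings iron into mitochondria, averaged 212 ± 43.8 CPM in PHx libraries and 210 ± 17.3 CPM in Sham libraries. Slc25a39, another carrier of the inner mitochondrial membrane, averaged 71.2 ± 3.86 CPM in PHx libraries and 80.6 ± 1.18 CPM in Sham libraries (SD, n = 3 for each).

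The genes of red cell membrane proteins that stand beside band 3 were low. Epb42, protein 4.2, which binds band 3, and Rhag, of the Rh complex, each had 1 count, in PHx library 1, and Icam4 had none. Ank1, ankyrin 1, which ties band 3 to the membrane skeleton, had 22, 47 and 16 counts in PHx libraries 1, 3 and 4 and 3, 16 and 16 counts in Sham libraries 1, 3 and 4, with a log2 fold change of 1.24 ± 0.73 (SE) and an unadjusted edgeR p of 0.131. Without PHx library 3 the log2 fold change of Ank1 was 0.64.

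The remaining membrane genes are also used by other cells. Of the 21 listed, 14 were tested, none was called, and the median log2 fold change was -0.17. Aqp1, a water channel of red cells and endothelium, supplied most of the list's summed level, with 4421, 6160 and 4020 CPM in PHx libraries 1, 3 and 4 and 7108, 7316 and 7125 CPM in Sham libraries 1, 3 and 4. Its groups did not overlap, with PHx lower, at an unadjusted edgeR p of 0.0284. Epb41, protein 4.1, likewise averaged 55.4 ± 4.60 CPM in PHx libraries and 73.4 ± 9.87 CPM in Sham libraries (SD, n = 3 each), at an unadjusted edgeR p of 0.0132. Cd47, Stom and Gypc, the others of highest level, had log2 fold changes of -0.26, 0.22 and -0.09.

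In the red cell cytoplasm list 16 genes were tested, none was called and the median log2 fold change was -0.07. Car2, carbonic anhydrase 2, averaged 12.0 ± 1.78 CPM in PHx libraries and 16.2 ± 2.77 CPM in Sham libraries (SD, n = 3 each), with overlapping groups. Car1, the carbonic anhydrase of mature red cells, had 6, 0 and 1 counts in PHx libraries 1, 3 and 4 and 5, 1 and 12 counts in Sham libraries 1, 3 and 4. Prdx2, Cat, Bnip3l and Xpo7, the listed genes of highest level, had log2 fold changes of 0.16, -0.25, 0.02 and -0.07.

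Of the regulators of red cell formation 13 were tested and none was called, with a median log2 fold change of 0.12. Gata1, the master transcription factor of red cell precursors, was at 0 in all libraries. Klf1, the factor that binds the CACCC box of adult beta globin, had 7, 5 and 10 counts in PHx libraries 1, 3 and 4 and 3, 5 and 4 counts in Sham libraries 1, 3 and 4. Tfrc, the transferrin receptor, ranged from 8.69 to 26.2 CPM in PHx libraries and from 3.11 to 18.2 CPM in Sham libraries, and Epor, the erythropoietin receptor, averaged 17.5 ± 3.26 CPM in PHx libraries and 17.6 ± 0.710 CPM in Sham libraries (SD, n = 3 each). Kit, Zfpm1, Ldb1 and Lmo2 had log2 fold changes of 0.12, -0.19, -0.05 and -0.01. Kit, the stem cell factor receptor, reached 767 CPM, and Kit and Lmo2 are also expressed by endothelial cells.

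The genes that clear hemoglobin and heme were likewise not called, with 13 tested and a median log2 fold change of 0.06. Hmox1, heme oxygenase 1, which breaks heme down, stood at 58.9, 75.6 and 125 CPM in PHx libraries 1, 3 and 4 and at 82.5, 57.8 and 72.5 CPM in Sham libraries 1, 3 and 4, with overlapping groups. Lrp1, the receptor for heme bound to hemopexin, the ferritin chain genes Fth1 and Ftl1, and the transferrin gene Trf had log2 fold changes of 0.48, 0.86, -0.03 and 0.19. Fth1 stood at 561, 430 and 1306 CPM in PHx libraries 1, 3 and 4 and at 481, 374 and 407 CPM in Sham libraries 1, 3 and 4, and without PHx library 4 its log2 fold change was 0.24. Slc40a1, ferroportin, which exports iron, averaged 205 ± 53.1 CPM in PHx libraries and 284 ± 15.0 CPM in Sham libraries (SD, n = 3 each), at an unadjusted edgeR p of 0.0338. Cd163, the macrophage receptor for hemoglobin bound to haptoglobin, ranged from 1.94 to 6.39 CPM in PHx libraries and from 4.99 to 30.9 CPM in Sham libraries. Apart from the regular naming rule, Slc40a1, Cd163, Epb41, Car1, Hbq1a, Hbb-bh2, Rhag and Icam4 were chosen after their values were seen.

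**Figure D3:**
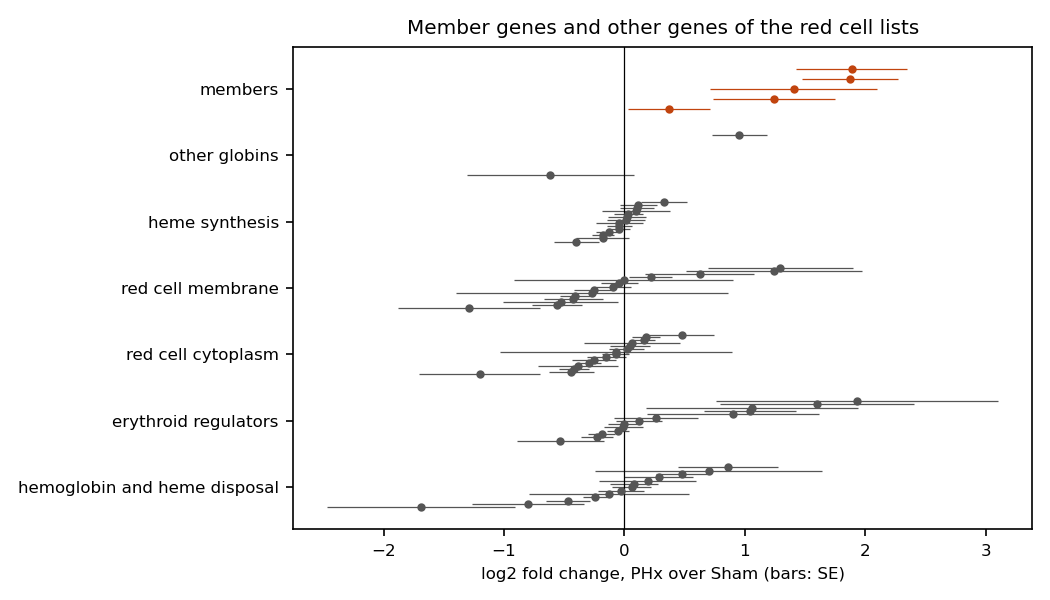
Log2 fold change, PHx over Sham, with its SE (horizontal axis) for the 5 tested members and the tested genes of the 6 other red cell lists (rows), 1 of which is not drawn. The 4 globin members lie between 1.24 and 1.89, Alas2 at 0.37, and the list genes lie on both sides of 0.

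Markers of other cells were set beside the globin sum library by library. Neutrophil markers, all 14 of which were detected, summed to 927, 42.3 and 5355 CPM in PHx libraries 1, 3 and 4 and to 519, 279 and 55.9 CPM in Sham libraries 1, 3 and 4. PHx libraries 4 and 1 were the highest for both neutrophil markers and globin. PHx library 3 was the lowest of all for neutrophil markers and had 18.0 CPM of globin, beside 11.1 CPM in the highest Sham library. The part of neutrophils or other blood cells in the globin difference was not tested. Ngp, a neutrophil granule gene, stood at 92.1, 4.01 and 714 CPM in PHx libraries 1, 3 and 4 and at 25.8, 16.1 and 2.56 CPM in Sham libraries 1, 3 and 4, and S100a8 and S100a9 followed the same order of PHx libraries. Without PHx library 4 the log2 fold change was 1.57 for Hba-a1 and 1.55 for Hbb-bs.

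Platelet markers, all 12 detected, summed to 112, 110 and 168 CPM in PHx libraries 1, 3 and 4 and to 100, 96.6 and 104 CPM in Sham libraries 1, 3 and 4. The sum, with Gng11 in it, was thus higher in every PHx library than in any Sham library. With Gng11 left out, PHx library 3 lay below Sham library 1, so the other platelet markers did not separate the groups. Of the 9 platelet markers that passed the count filter, none separated the groups in this way on its own. The part of platelets in the globin difference was not tested. Gng11, also an endothelial gene, supplied most of the platelet sum. It stood at 73.7, 80.6 and 85.4 CPM in PHx libraries 1, 3 and 4 and at 68.7, 74.9 and 80.2 CPM in Sham libraries 1, 3 and 4. Pf4, platelet factor 4, stood at 3.40, 3.62 and 2.50 CPM in PHx libraries 1, 3 and 4 and at 2.20, 2.78 and 2.74 CPM in Sham libraries 1, 3 and 4. Leukocyte markers, all 12 detected, summed to 81.7 to 238 CPM in PHx libraries and 96.5 to 359 CPM in Sham libraries, with overlap. Ptprc, the pan-leukocyte gene for CD45, had 80.5, 17.5 and 179 CPM in PHx libraries 1, 3 and 4 and 71.0, 34.0 and 24.3 CPM in Sham libraries 1, 3 and 4. Hepatocyte markers, all 10 detected, summed to 644 to 1377 CPM in PHx libraries and 1227 to 1742 CPM in Sham libraries, and Alb, albumin, averaged 710 ± 232 CPM in PHx libraries and 972 ± 206 CPM in Sham libraries (SD, n = 3 each). Proliferation genes summed to 181 to 234 CPM in PHx libraries and 163 to 220 CPM in Sham libraries, with Mki67 at 54.5 ± 1.26 CPM in PHx libraries and 39.3 ± 9.91 CPM in Sham libraries and Pcna at 119 ± 38.4 CPM in PHx libraries and 110 ± 31.7 CPM in Sham libraries (SD, n = 3 each). Stab1, a scavenger receptor of sinusoidal endothelium and the endothelial marker of highest level, averaged 3889 ± 1107 CPM in PHx libraries and 6676 ± 590 CPM in Sham libraries (SD, n = 3 each).

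**Figure D4:**
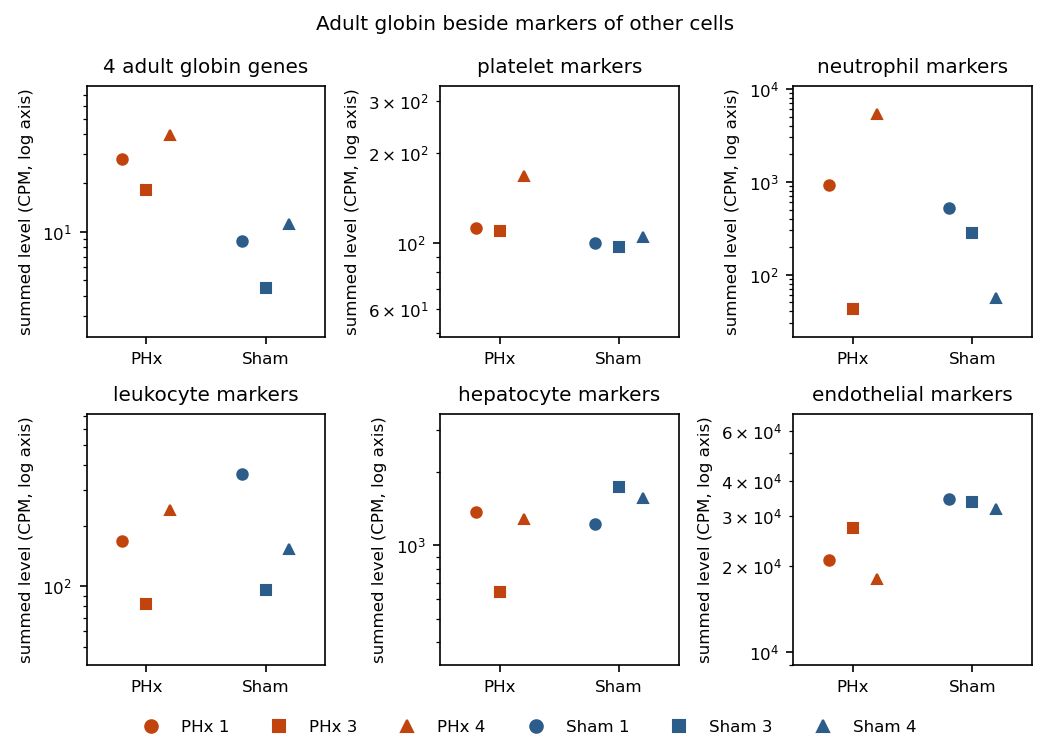
Summed level in CPM (vertical log axes, each with its own scale) of the 4 adult globin genes and of 5 lists of cell markers in each PHx and Sham library. PHx library 3 lies at the bottom of the neutrophil panel, at 42.3 CPM, and above all Sham libraries in the globin panel, at 18.0 CPM, while the endothelial sums are lower in all PHx libraries.

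To find genes of like pattern, the mean log2 CPM of the 6 members was compared with every gene of at least 1 CPM on average, 14569 genes, by Pearson's r over the 6 libraries. The members did not share 1 pattern: r was 0.98 for Hba-a1 with Hbb-bs, 0.42 for Hba-a1 with Alas2 and 0.11 for Hbb-bt with Slc4a1. Their mean was highest in PHx library 1, at 1.42, against 1.15 in PHx library 4, which was highest for globin. Likeness to the mean is therefore not likeness to the globin genes. The 10 most alike were Tmem151a, Lif, Gpc3, Lrp2, Fam198b, Hacd4, LOC108168323, Tmem14c, B4galt2 and Lrrn4, with r from 0.99 to 0.98, and 56 genes exceeded 0.95. The 6 libraries fall into 2 groups and each gives 1 depth to all genes, so these values are given as a description. In all 10 genes the PHx libraries lay above the Sham libraries, as they did in 10.6% of all tested genes. Of the 10, edgeR called Gpc3, glypican 3, a cell surface proteoglycan, at 17.3, 13.5 and 16.9 CPM in PHx libraries 1, 3 and 4 and 4.08, 3.79 and 6.07 CPM in Sham libraries 1, 3 and 4, with a log2 fold change of 1.77 ± 0.23 (SE) and an adjusted p of 0.0221. Lif, the cytokine leukemia inhibitory factor, had 6.59, 5.65 and 5.92 CPM in PHx libraries 1, 3 and 4 and 1.25, 0.928 and 2.58 CPM in Sham libraries 1, 3 and 4, at an edgeR adjusted p of 0.0892 and a DESeq2 adjusted p of 8.46e-05. DESeq2 called 7 of the 10 higher: Tmem151a, Lif, Gpc3, Lrp2, Fam198b, Hacd4 and Lrrn4. Over all genes, edgeR called 0.846% higher and DESeq2 3.80%. The 10 were picked for likeness to a pattern that is higher in PHx libraries, so nothing is read from these counts. Sizes ranged from a log2 fold change of 0.23 for Tmem14c to 2.43 for Lrrn4, so likeness of pattern did not mean likeness of size.

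**Figure D5:**
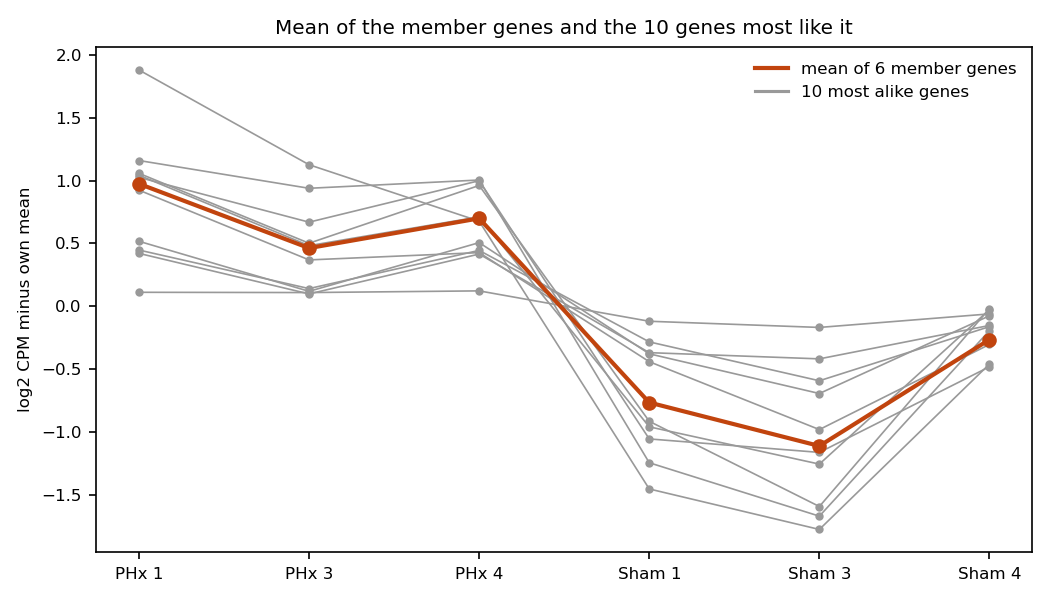
Log2 CPM minus each series' own mean over the 6 libraries (vertical axis) for the mean of the 6 members (thick line) and the 10 most alike genes (thin lines), with the PHx libraries on the left. All lines lie higher in the 3 PHx libraries than in the 3 Sham libraries, with Sham library 3 the lowest for the mean of the members.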

How the data were processed

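A deposited table gave a whole-number count, an RPKM value and a length for each gene in 6 libraries. Reads were paired, 2 × 150 bases, per the labels' protocols. Per the submitters' processing notes, bcl2fastq and TopHat2 2.0.13 were used, with build mm10 (GRCm38). The counter, its annotation and its use of strand are not given in the sources used here. The deposited RPKM values equalled count over length and summed counts for 100% of values (relative tolerance 1e-06), and the deposited length in the table was used for that check. 27 gene names that had become dates were restored through their Entrez numbers.

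The deposited counts were fitted with edgeR 4.0.16 in R 4.3.3 (TMM scaling, filterByExpr, robust quasi-likelihood, group as the only term), with Benjamini-Hochberg adjustment over 19033 genes. SE is the absolute log2 fold change over the square root of F, and CPM is TMM-scaled. Alternatives were DESeq2 1.42.0, limma 3.58.1 (voom), other scaling, no filter, a replicate block, an adjusted p under 0.01 and leaving out each library. The model was tested on simulated data. No library pair agreed within sampling noise. A count of 0 allows 3 counts, and intervals cover counting error only.

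The members and lists were chosen with earlier results of these data known. The text names every member, the called genes and the 4 of highest mean CPM of each red cell list, a fixed set of erythroid and cell marker genes, and the 10 genes most like the mean of the members in pattern. 2 listed genes, Ahsp and Hbb-bh0, were not matched to the table and are not analysed here. Flvcr1 was matched by its older symbol. Some genes that this rule names are not reported here.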

Additional observations from a re-analysis of the deposited data

How the results depend on the processing

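The 5 fitted members were higher in PHx libraries under all 13 alternatives, with a log2 fold change of 1.51 to 2.14 for Hba-a1, 0.91 to 1.68 for Hba-a2, 1.55 to 2.21 for Hbb-bs, 0.97 to 1.76 for Hbb-bt and 0.15 to 0.68 for Alas2. Their median ran from 1.06 to 1.76 when libraries were left out. The members were chosen on this contrast and the alternatives refit the same libraries, so the constant sign is a description and no independent support. The number of genes called higher and lower, 161 and 3, was 728 and 84 with DESeq2, 359 and 30 with no filter, 94 and 1 with limma-voom, 16 and 1 at an adjusted p under 0.01, and 0 to 160 and 0 to 9 when 1 library was left out. A replicate block in the fit left 14 and 1. The deviations of libraries that share a number correlated at -0.09, -0.23 and 0.03. Each value rests on 1 library per group, so it cannot decide whether shared numbers pair the libraries. DESeq2 called 1 gene of the red cell lists, Cygb, and the other alternatives none. The alpha to beta ratio was 1.21 in PHx and 1.24 in Sham libraries on RPKM. The cause of these shifts was not tested.

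Genes near 0 changed sign. Slc25a37 took -0.0180 with upper-quartile factors, -0.0156 without the filter, -0.0048 with limma-voom and -0.0034 under the replicate block. Bnip3l took -0.0162 with upper-quartile factors and -0.0119 without the filter. Lmo2 took 0.0284 by summed counts alone and 0.0015 under the block, and by summed counts Epor took 0.0377 and Ftl1 0.0083. Leaving out 1 library gave ranges of -0.11 to 0.0087 for Fech, -0.18 to 0.12 for Slc25a37, -0.22 to 0.0443 for Gypc, -0.13 to 0.10 for Bnip3l, -0.12 to 0.0808 for Lmo2, -0.16 to 0.12 for Epor, -0.0685 to 0.24 for Kit, -0.0762 to 0.49 for Hmox1, -0.18 to 0.0633 for Ftl1, -0.12 to 0.55 for Trf, -0.0519 to 0.17 for Mcam and -0.0925 to 0.36 for Pcna. Gpc3 was no longer called under the replicate block or without PHx library 1 or any 1 Sham library. Depth limits Slc4a1 and Klf1, with at most 13 counts in a library.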
